A study of Homo sapiens with 6 samples.

Results

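Transcripts of 8 genes of mucosal epithelium were followed across 6 RNA-sequencing libraries of human lung cancer cells: the trefoil factor genes TFF1, TFF2 and TFF3 and the mucin genes MUC1, MUC4, MUC13, MUC16 and MUC20. They are 8 of the 26475 genes in the deposited table over all libraries. The genes were taken by symbol and were chosen on their TPM in these libraries, which was known when the set was put forward. Their levels and the differences between the lines are therefore given as a description, without p-values, although those that passed a filter were included in a model over all tested genes.

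Of the 6 libraries 2 came from PC9, 2 from PC9-BrM4 and 2 from PC9-AMG, and the labels give culture in MGS as the treatment of all of them. PC9 is an established human line of EGFR-mutant lung adenocarcinoma, from which, by their names, both other lines derive. BrM4, AMG and MGS are not expanded in the labels; MGS is thought, from knowledge of the study and not from the labels or files, to be a soft culture substrate with mouse glial cells. Each library name also contains "mix", which the labels leave unexplained, so whether RNA of other cells is included is unknown from these sources. No label says how the derivatives were made, whether either is 1 clone, or whether the 2 libraries of a line came from separate cultures, so p-values measure only the spread between libraries, which may be technical.

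Trefoil factors are small secreted peptides with a looped, disulfide-bonded domain that resists proteases. Mucous cells release them together with secreted mucins, and they are known for helping injured epithelium to close. Mucins carry long stretches rich in serine and threonine to which O-linked sugars are attached; some are secreted and form gels, whereas MUC1, MUC4, MUC13 and MUC16 are anchored in the apical membrane as a glycosylated brush, and MUC20 is a further membrane mucin. In lung adenocarcinoma MUC1 is the classic membrane mucin of the tumour cell surface, and MUC16 carries the CA125 antigen.

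TFF1 (21:42362282-42366535), TFF2 (21:42346358-42351099) and TFF3 (21:42311667-42315596) lie side by side on the minus strand of chromosome 21, in the coordinates of build hg38 given by the files. TFF2 and TFF1 are 11182 bp apart, and TFF3 and TFF2 are 30761 bp apart. MUC20 (3:195720882-195733553, plus strand) and MUC4 (3:195746766-195811973, minus strand) face each other tail to tail on chromosome 3 with 13212 bp between them. MUC13 (3:124905442-124934751), MUC1 (1:155185824-155192915) and MUC16 (19:8848844-8981342), each on the minus strand, stand alone. All 8 are annotated as protein coding in GENCODE release 29. The longest annotated transcripts range from 551 bp in 3 exons for TFF1 to 43816 bp in 84 exons for MUC16.

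The RefSeq promoter table (GRCh38.p14) matched 4 of the 8 members: MUC1, MUC4, MUC13 and MUC16. Of these, 2 promoters are printed as a contrast, that of MUC1, which was abundant in every library, and that of MUC13, which was listed at 0 in all 6. Each is the 250 bases before the start site, 5′ to 3′ on the strand of the gene, from chr1:155192916-155193165 for MUC1 and chr3:124934752-124935001 for MUC13, both minus strand. Capitals mark matches to the motifs searched on both strands. These were GGGCGG, known as the box bound by SP1, TATAAA, the core of a TATA box, and TGANTCA, the site of AP-1 factors. CACGTG, the E-box, was searched as well, as was ACCGGAAG, a site of ETS factors. The forkhead sites TGTTTAC and, with 1 base changed, TGTTTGC were searched too, as was the palindromic estrogen response element.
MUC1: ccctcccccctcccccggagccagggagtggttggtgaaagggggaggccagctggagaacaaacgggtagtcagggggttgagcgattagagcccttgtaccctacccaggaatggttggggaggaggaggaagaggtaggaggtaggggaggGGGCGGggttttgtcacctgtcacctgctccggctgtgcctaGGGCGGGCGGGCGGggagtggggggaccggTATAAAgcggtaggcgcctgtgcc
MUC13: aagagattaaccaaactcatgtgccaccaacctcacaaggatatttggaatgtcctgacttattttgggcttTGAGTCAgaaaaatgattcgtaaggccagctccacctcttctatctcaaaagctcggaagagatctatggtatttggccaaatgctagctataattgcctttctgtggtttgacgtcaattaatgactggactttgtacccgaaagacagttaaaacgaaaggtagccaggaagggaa
In the MUC1 promoter GGGCGG begins at positions -96, -54, -50 and -46 from the start site, the last 3 matches overlapping, and TATAAA begins at -24. In the MUC13 promoter a match to TGANTCA begins at -178. Of all 35116 promoters in the table, cut to the same length, 42.6% hold GGGCGG, 10.7% hold TATAAA and 6.57% hold TGANTCA. The motifs without a match in either printed window are held by 6.35% (CACGTG), 1.78% (ETS), 2.98% and 3.23% (the forkhead sites as named) and 0.0399% (estrogen response element) of all promoters. The MUC1 window is 66% G and C with 11 CpG sites and the MUC13 window 41.6% with 5, against medians of 58% and 11 over all promoters. All 250 bases of the MUC4 window lie inside a MUC4 exon of GENCODE, and the MUC16 start site in RefSeq is 29067 bp from the gene start in the files, so neither is printed. GENCODE carries MUC13 as far as position 124953819 of chromosome 3, upstream of the RefSeq start at 124934751, so the printed MUC13 window is the promoter of the RefSeq start, which is also the gene start in the files.

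TFF1 was the only trefoil factor at 1 TPM or more in any library (TPM is a length-normalised share of the transcripts of a library, scaled to a fixed total). In PC9 it stood at 8.68 and 11.9 TPM (10.3 ± 2.31, SD, n = 2). In PC9-BrM4 it stood at 1.66 and 1.09 TPM (1.37 ± 0.406), and in PC9-AMG at 21.6 and 26.95 TPM (24.3 ± 3.79). The 3 lines did not overlap: both PC9-BrM4 libraries lay below both PC9 libraries, which lay below both PC9-AMG libraries.

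On the log2(TPM + 1) scale, which understates changes of low genes, TFF1 differed from PC9 by -2.25 (moderated SE 0.21) in PC9-BrM4 and by 1.17 in PC9-AMG with the same SE. By mean TPM the level was 7.51-fold lower in PC9-BrM4 and 2.35-fold higher in PC9-AMG than in PC9. Between the derivatives the difference was 3.42, a 17.7-fold ratio of the means. Since RNA was taken from bulk cultures, fewer cells that express TFF1 and less TFF1 RNA per cell cannot be told apart. The per-base read coverage of TFF1 in PC9-BrM4 was 1.06 and 0.659, so its level there rests on few reads.

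TFF2, the spasmolytic peptide of the stomach, was listed at 0.525 TPM in the second PC9 library and at 0 in the other 5 libraries. TFF3, the intestinal trefoil factor, was listed at 0 in all 6. MUC13, a membrane mucin of the gut, was also listed at 0 in all 6. A zero in these tables can be a missed estimate as well as a true absence. These 3 genes did not pass the filter of 1 TPM in at least 2 libraries, and differences are given for the other 5 members.

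**Figure D1:**
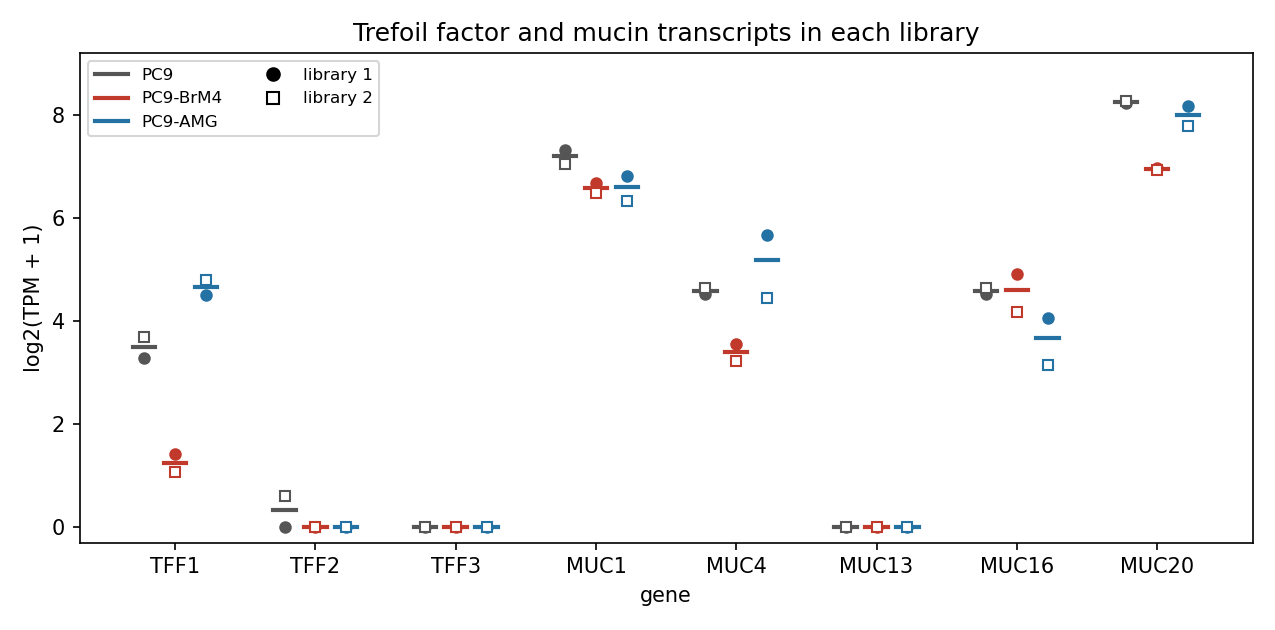
Levels of the 8 genes as log2(TPM + 1) on the vertical axis, by gene along the horizontal axis; filled circles are library 1, open squares library 2 and bars the mean of the 2 libraries of a line (PC9 grey, PC9-BrM4 red, PC9-AMG blue). TFF1 is lowest in red, intermediate in grey and highest in blue, MUC20 is lowest in both PC9-BrM4 libraries, and TFF3 and MUC13 lie at 0 throughout.

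MUC20, a mucin that interacts with the MET receptor, was the most abundant member in every library. Its levels were 299 and 308 TPM in PC9 (303 ± 6.27), 124 and 121 in PC9-BrM4 (123 ± 2.43) and 289 and 220.1 in PC9-AMG (254 ± 48.7). Both PC9-BrM4 libraries were below all 4 others. The mean was 2.47-fold lower in PC9-BrM4 than in PC9, a log2 difference of -1.30 (SE 0.12), while PC9-AMG differed from PC9 by -0.26 and from PC9-BrM4 by 1.03. The 2 PC9-BrM4 libraries differed by 0.0401 on the log2 scale, against a median gap of 0.184 over the tested genes. GENCODE places the long noncoding gene MUC20-OT1 over MUC20 on the same strand and a pseudogene copy, MUC20P1, nearby, so the count of MUC20 itself is uncertain where reads are shared.

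MUC4, a membrane mucin that binds the ERBB2 receptor, stood at 22.1 and 23.9 TPM in PC9 (23.0 ± 1.25) and at 10.7 and 8.30 TPM in PC9-BrM4 (9.49 ± 1.67). The PC9-AMG libraries gave 49.6 and 20.7 TPM (35.1 ± 20.4), the first above and the second below both PC9 libraries. PC9-BrM4 was below every other library, with a log2 difference from PC9 of -1.20 (SE 0.31). The difference between PC9-AMG and PC9 was 0.47 and depended on the library taken: it was 1.08 without the second PC9-AMG library and -0.15 without the first. PC9-AMG exceeded PC9-BrM4 by 1.67, or by 1.06 without its first library. MUC4 and MUC20, neighbours on chromosome 3, were thus both lowest in PC9-BrM4, but the ratio of MUC20 to MUC4 ran from 11.7 to 14.6 over the PC9 and PC9-BrM4 libraries and was 5.83 and 10.6 in PC9-AMG.

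MUC1, whose cytoplasmic tail takes part in signalling, was the second most abundant member in every library. It was measured at 159 and 131 TPM in PC9 (145 ± 19.9), at 100.7 and 88.0 in PC9-BrM4 (94.3 ± 8.98) and at 112 and 79.3 in PC9-AMG (95.6 ± 23.1). Both derivatives lay below both PC9 libraries, by -0.61 in each case. These comparisons share the PC9 libraries and an SE of 0.16 pooled over the lines. Over 18 alternatives the difference ran from -0.86 to -0.37 for PC9-AMG and from -0.75 to -0.48 for PC9-BrM4. The derivatives overlapped each other, with a difference of 0.0015 (SE 0.16) that was -0.24 without the first and 0.25 without the second PC9-AMG library.

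MUC16, the longest of the mucins and a ligand of mesothelin, stood at 22.1 and 23.8 TPM in PC9 (23.0 ± 1.21). The PC9-BrM4 libraries, at 29.3 and 17.2 TPM (23.2 ± 8.57), lay on either side of PC9. In PC9-AMG it was 15.6 and 7.83 TPM (11.7 ± 5.46), below all 4 other libraries. The log2 difference from PC9 was -0.99 (SE 0.29) in PC9-AMG. Over 18 alternatives it ran from -1.44 to -0.53, and the model over all tested genes did not call it. In PC9-BrM4 the difference was -0.03, running from -0.40 to 0.34 as the PC9-BrM4 libraries were left out in turn. MUC16 had its low level in the line where TFF1 was high, and MUC4 and MUC20 had theirs in the line where TFF1 was low.

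**Figure D2:**
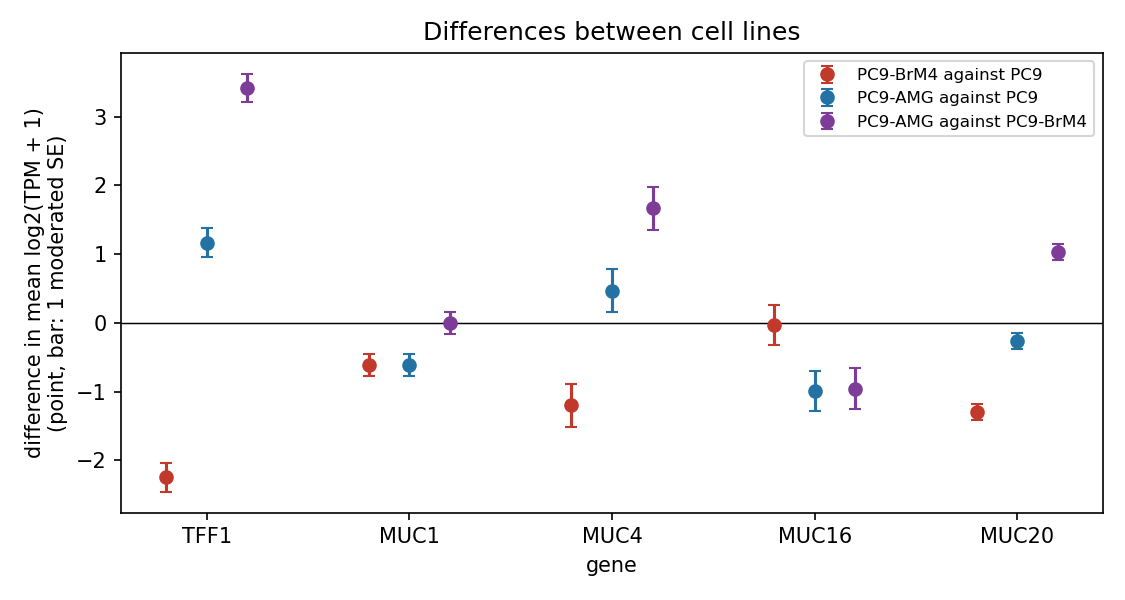
Differences in mean log2(TPM + 1) between the lines (vertical axis) for the 5 genes that passed the filter (horizontal axis), with bars of 1 moderated standard error. TFF1, MUC4 and MUC20 are below 0 for PC9-BrM4 against PC9 and above 0 for PC9-AMG against PC9-BrM4, MUC16 is below 0 where PC9-AMG is compared with either line, and MUC1 is below 0 in both comparisons with PC9.

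The order of the members changed between the lines only below the leading pair. MUC20 was followed by MUC1 in all 6 libraries. In PC9, MUC16 and MUC4 were level, with MUC16 to MUC4 ratios of 1.002 and 0.9996, and TFF1 came after both. The ratio was 2.74 and 2.07 in PC9-BrM4, where TFF1 again came last of the 5, and 0.314 and 0.379 in PC9-AMG, where TFF1 stood above MUC16. In the second PC9-AMG library TFF1 also exceeded MUC4. The TFF1 to MUC1 ratio was 0.0545 and 0.0910 in PC9, 0.0165 and 0.0123 in PC9-BrM4, and 0.193 and 0.340 in PC9-AMG. The 8 genes together held 511 and 499 TPM in PC9, 267 and 235 in PC9-BrM4 and 488 and 355 in PC9-AMG, and MUC20 made up between 46.6% and 62.0% of that sum.

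Several mucins varied more between the 2 libraries of a line than most genes did. In PC9-AMG the gap between libraries was 1.22 on the log2 scale for MUC4, at percentile 99.0 of all tested genes, and 0.91 for MUC16, at percentile 98.02. In PC9-BrM4 the gap for MUC16 was 0.74, at percentile 96.4. MUC1, MUC4, MUC16 and MUC20 were all higher in the first PC9-AMG library, and TFF1 was higher in the second. The median gap over tested genes was 0.0904 in PC9, 0.184 in PC9-BrM4 and 0.171 in PC9-AMG.

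A linear model (limma) on all 14627 genes passing the filter called a gene at a Benjamini-Hochberg adjusted p under 0.05. For PC9-BrM4 against PC9 it placed 4 of the 5 members among the genes called lower (all but MUC16) and none among those called higher; of all tested genes 16.3% were called, 9.89% as higher and 6.45% as lower. For PC9-AMG against PC9 it placed TFF1 among the higher and MUC1 among the lower genes, where 7.49% of all tested genes were called, 3.67% as higher and 3.82% as lower. For PC9-AMG against PC9-BrM4 it placed TFF1, MUC4 and MUC20 among the higher and MUC16 among the lower genes, where 18.6% were called, 6.31% as higher and 12.3% as lower. The libraries of the lines did not overlap for 4 of the 5 members in each comparison, as for 61.2%, 59.8% and 59.5% of all tested genes in the same order. Because the members were put forward on these levels, nothing is read from these counts. Their median difference was -1.20, -0.26 and 1.03 in the 3 comparisons, beside 0.09, -0.05 and -0.13 over all tested genes.

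Other genes of mucosal biology were taken as 5 lists holding 108 genes, of which 63 were tested: other mucins, enzymes of mucin-type O-glycosylation, transcription factors, secretory products, and binding partners with shedding enzymes. In PC9-BrM4 against PC9, 24 of the 63 were called (38.1%, against 16.3% of all tested genes), 7 higher and 17 lower. The median difference was -0.20, beside 0.09 over all tested genes. In PC9-AMG against PC9, 8 were called (12.7%, against 7.49%), all of them lower, with a median of -0.28, beside -0.05. An unadjusted limma p under 0.05 was met by 32 there, by 32 in PC9-BrM4 against PC9 and by 27 between the derivatives. The share of all tested genes at that level was not counted, so these counts and those for single lists below are not interpreted. In PC9-AMG against PC9-BrM4, 22 were called (34.9%, against 18.6%), 9 higher and 13 lower, with a median of -0.01, beside -0.13. The count for PC9-BrM4 against PC9 dropped to 12 and 13 when the first and the second PC9 library were left out, and to 15 when the first PC9-BrM4 library was. The count for PC9-AMG against PC9 was 1 without either of the PC9 libraries, 4 without PC9-AMG library 1 and 1 without PC9-AMG library 2. The count between the derivatives was 14 without either of the PC9 libraries, 11 without PC9-BrM4 library 1 and 13 without PC9-AMG library 1. Centring every library on its median moved these splits to 2 higher and 20 lower, 0 and 6, and 14 and 6. The split over all tested genes moved with it. It went from 1446 higher and 943 lower to 917 and 1293 for PC9-BrM4, and from 537 and 559 to 685 and 436 for PC9-AMG. For the derivatives against each other it went from 923 and 1797 to 1606 and 900. Of 20 ribosomal protein genes, a list outside mucosal biology, 10 were called in PC9-BrM4 against PC9, all lower, with a median of -0.22. In PC9-AMG against PC9, 3 were called, all higher, and between the derivatives 14, all higher in PC9-AMG. Nothing particular to mucosal genes is therefore read from the counts of the lists, here or singly below.

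Only 3 of the 16 other mucins were tested. MUC15, a small membrane mucin, rose in PC9-BrM4, at 4.74 and 4.18 TPM against 1.04 and 1.29 in PC9 (log2 difference 1.34, limma adjusted p 0.00443), and so moved against MUC4 and MUC20. It was lower in PC9-AMG than in PC9-BrM4 by -1.20 (adjusted p 0.00702), a call lost without the first PC9-BrM4 library (adjusted p 0.0677). In PC9-AMG against PC9 limma called 0 of the 3, and 1 had an unadjusted p under 0.05. The gel-forming mucins of airway and gut were at trace level or absent: the highest value over the 6 libraries was 0.0166 TPM for MUC2, 0.0645 for MUC5AC, 0.167 for MUC5B and 0.507 for MUC6.

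Among 26 tested genes of O-glycosylation, 7 fell and 1 rose in PC9-BrM4 against PC9. GALNT12, an enzyme that adds the first sugar of mucin-type chains, fell from 37.8 and 39.2 TPM to 15.8 and 15.7 (-1.23, adjusted p 0.000124 in limma). GCNT1, which branches the core chain, fell from 11.3 and 10.98 TPM to 3.93 and 2.61 (-1.53, adjusted p 0.00102). Of the other initiating enzymes, GALNT9 changed by -0.84, GALNT16 by -0.75, GALNT11 by -0.66 and GALNT2 by -0.35, and the fucosyltransferase FUT3 by -0.41. All of these were called, but those of GALNT16, GALNT11, GALNT2 and FUT3 did not hold without PC9 library 1 or without PC9 library 2. B3GNT3, which extends the chain, rose by 0.44, but was not called after median centring, without either of the PC9 libraries or without the first PC9-BrM4 library (limma adjusted p as high as 0.157). In PC9-AMG against PC9, 3 of the 26 fell and none rose, with 12 at an unadjusted limma p under 0.05: GCNT1 (-0.86), GALNT6 (-0.60) and ST6GALNAC2 (-0.49). None of these 3 calls held without PC9 library 1 or without PC9 library 2. GALNT12 was higher in PC9-AMG than in PC9-BrM4, at 30.7 and 31.1 TPM (0.93, adjusted p 0.000724), and B3GNT3 was lower (-0.76, adjusted p 0.000808).

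Of 10 tested mucosal transcription factors, 4 fell and 1 rose in PC9-BrM4 against PC9. FOXA1, a pioneer factor of endodermal epithelium, fell from 14.2 and 14.5 TPM to 0.809 and 1.83 (-2.76, limma adjusted p 4.62e-05). ELF3, an epithelial ETS factor, fell from 317 and 314 TPM to 144 and 149 (-1.10, adjusted p 4.26e-05). GATA6 changed by -1.22 and KLF5 by -0.44, and KLF4 rose by 0.38; the KLF4 call was lost after median centring, and neither KLF call held without PC9 library 1 or without PC9 library 2. In PC9-AMG, ELF3 fell to 174 and 159 TPM (-0.92, adjusted p 0.00108) and was the only one of the 10 called. FOXA1 was higher in PC9-AMG than in PC9-BrM4 by 2.02 and GATA6 by 0.85. SPDEF, a factor of goblet cells, and FOXA2 did not reach 1 TPM in any library, the highest values being 0.692 and 0.286.

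Secretory products that accompany trefoil factors and mucins were tested for 11 of 26 genes, and in PC9-BrM4 against PC9 4 fell and 1 rose. AGR2, a disulfide isomerase needed for mucin folding, fell from 56.9 and 56.1 TPM to 22.4 and 23.6 (-1.26, limma adjusted p 7.44e-05). WFDC2, a secreted antiprotease of airway epithelium, fell from 523 and 497 TPM to 164 and 193 (-1.51, adjusted p 9.79e-06). TSPAN8, a tetraspanin, was listed at 3.22 and 2.55 TPM in PC9 and at 0 in both PC9-BrM4 libraries (adjusted p 0.00267). Lysozyme (LYZ) fell by 0.999 and the antiprotease SLPI rose by 0.31, calls that were lost under 7 and 13 of the alternatives. In PC9-AMG against PC9, AGR2 fell to 34.6 and 34.4 TPM (-0.70, adjusted p 0.00884) and was the only one called; leaving out either PC9 library or the second PC9-AMG library brought its adjusted p as high as 0.103. WFDC2 was higher in PC9-AMG than in PC9-BrM4, at 461 and 431 TPM (1.32, adjusted p 3.89e-05). The gastric partners of TFF1, GKN1 and GKN2, were listed at 0 in all 6 libraries.

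**Figure D3:**
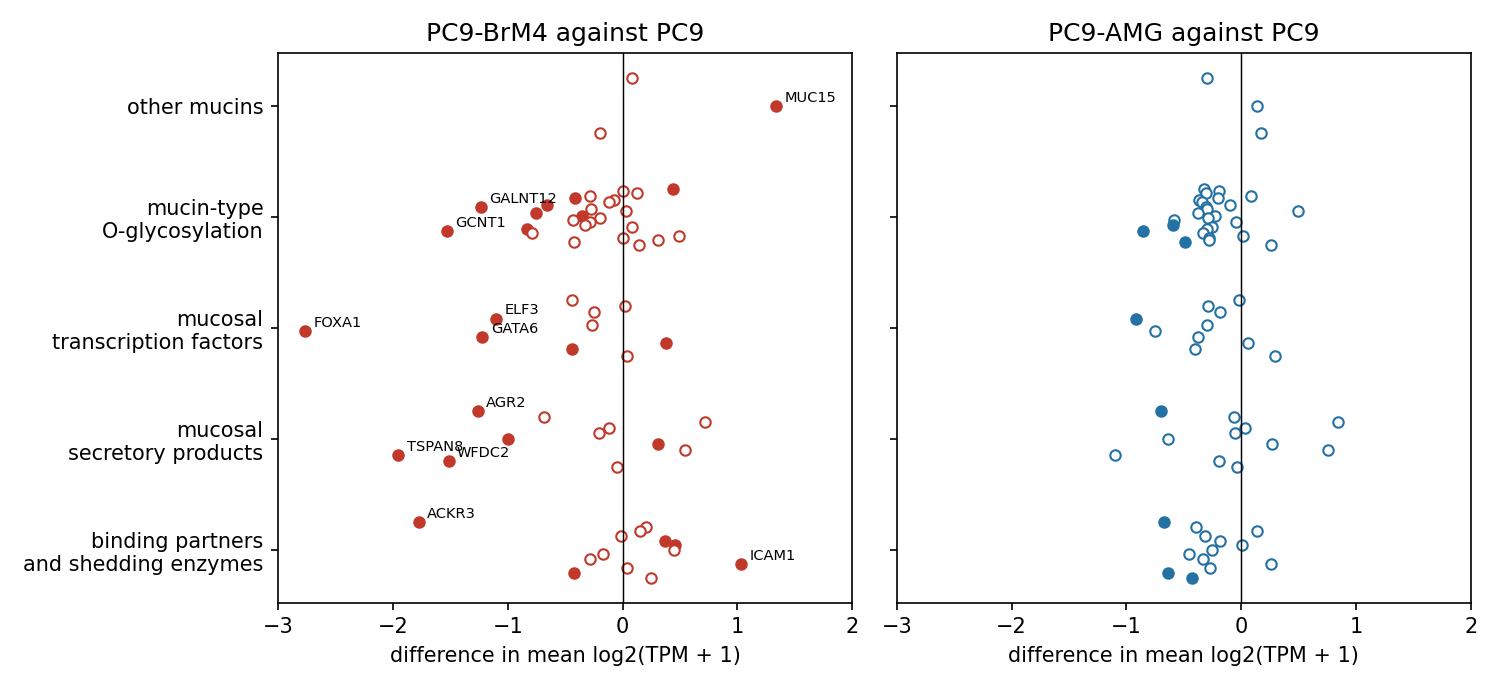
Differences in mean log2(TPM + 1) from PC9 (horizontal axis) for the 63 tested genes of the 5 lists (rows), in PC9-BrM4 (left, red) and PC9-AMG (right, blue); filled points passed an adjusted p of 0.05 and open points did not. ACKR3, AGR2, WFDC2, TSPAN8, ELF3, GATA6, FOXA1, GALNT12 and GCNT1 lie at -1.10 or lower on the left, with ICAM1 and MUC15 on the other side of 0.

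Of 13 tested binding partners and shedding enzymes, 3 rose and 2 fell in PC9-BrM4 against PC9. ACKR3, an atypical chemokine receptor, fell from 38.7 and 38.3 TPM to 9.35 and 11.9 (-1.77, limma adjusted p 4.38e-05). ICAM1, an adhesion receptor bound by MUC1, rose from 50.4 and 51.4 TPM to 109 and 101.3 (1.03, adjusted p 0.000183). CXCR4, a chemokine receptor linked to trefoil factor signalling, rose by 0.46 and CTNNB1, which binds the MUC1 tail, by 0.37, both calls lost after median centring, without either of the PC9 libraries and without the first PC9-BrM4 library (CXCR4 under 6 and CTNNB1 under 8 of 18 alternatives), and the protease MMP14 fell by 0.42, a call lost under 9 of 18 alternatives. In PC9-AMG against PC9, 3 of the 13 fell: ACKR3 (-0.67), MMP14 (-0.64) and mesothelin, MSLN (-0.43); none rose, 9 had an unadjusted limma p under 0.05, and no call held without PC9 library 1 or without PC9 library 2. In PC9-AMG against PC9-BrM4, 7 fell and 1 rose. MSLN, the MUC16 receptor, was lower at 169 and 141 TPM against 238 and 260 (-0.68, adjusted p 0.00234), in the comparison in which MUC16 was lower too. ADAM10, a sheddase, was lower by -0.60, a call lost when the first library of either derivative was left out. ICAM1 was also lower (-0.77) and ACKR3 higher (1.11). ADAM17, another sheddase, was not called in any of the 3 comparisons, with limma adjusted p between 0.537 and 0.969.

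The genes on either side of the members on the chromosome were tested next, the nearest 3 on each side, 30 distinct genes in all. Of these 16.7% were called in PC9-BrM4 against PC9 (3 higher, 2 lower), 3.33% in PC9-AMG against PC9 (1 higher) and 23.3% in PC9-AMG against PC9-BrM4 (2 higher, 5 lower), where 16.3%, 7.49% and 18.6% of all tested genes were called, so nothing particular to these neighbourhoods is read from the shares. TMPRSS3 (21:42371887-42396846), a serine protease gene, lies 5351 bp from TFF1 on the same strand. It stood at 9.93 and 9.98 TPM in PC9, 40.8 and 41.5 in PC9-BrM4, and 20.1 and 19.98 in PC9-AMG. It rose in both derivatives, by 1.94 (limma adjusted p 9.79e-06) and 0.94 (adjusted p 0.00374), and was lower in PC9-AMG than in PC9-BrM4 by -1.002 (adjusted p 0.000633). The line with the lowest TFF1 thus had the highest level of its nearest tested neighbour.

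Around MUC4 and MUC20, the lowest limma adjusted p of the 6 tested genes over the 3 comparisons was 0.0652, for LINC00969 in PC9-AMG against PC9-BrM4. LINC00969, 9006 bp from MUC20, differed by -0.57 (SE 0.21) in PC9-BrM4 against PC9 and was not called (limma adjusted p 0.0944). TNK2, a kinase gene 51390 bp beyond MUC4, stood between 39.5 and 56.1 TPM in the 6 libraries and was not called in PC9-BrM4 against PC9, with a difference of -0.10 (SE 0.15, limma adjusted p 0.716). Beside MUC1, THBS3 was lower in PC9-AMG than in PC9-BrM4 (-0.92, adjusted p 0.00589), where MUC1 itself differed by 0.0015; that call was lost without the first PC9-BrM4 library (adjusted p 0.0882). Beside MUC13, which was listed at 0, the integrin gene ITGB5 rose in PC9-BrM4 by 0.74, from 171 and 179 to 304 and 282 TPM (adjusted p 0.00102). HEG1, a membrane protein gene on its other side, changed by -1.13 (limma adjusted p 0.00409) and SLC12A8, a transporter gene, by -0.81 (adjusted p 0.00365, and 0.0546 without PC9 library 1). Whether reads were counted by strand is not given in the sources used here, so it is unknown whether reads of overlapping genes on opposite strands were told apart.

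**Figure D4:**
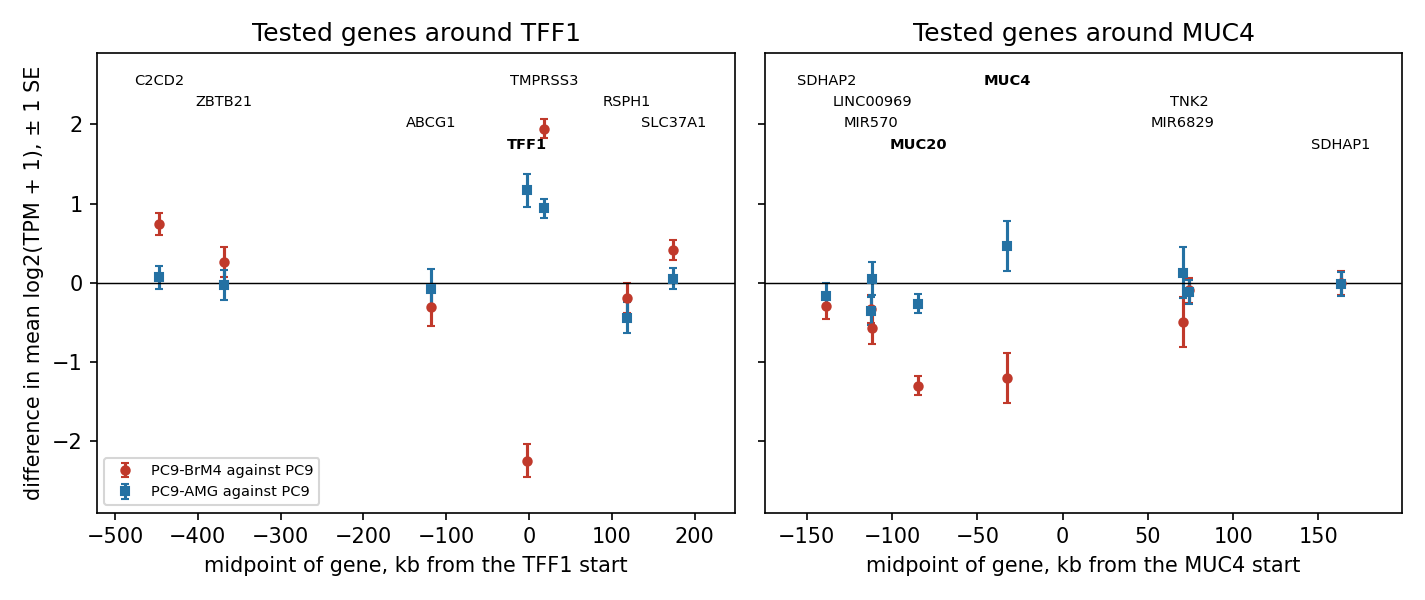
Differences in mean log2(TPM + 1) from PC9, with bars of 1 moderated standard error, for TFF1 (left), MUC20 and MUC4 (right) and the tested genes around them, by distance of the gene's midpoint from the start of TFF1 or MUC4 in kb; red circles are PC9-BrM4 and blue squares PC9-AMG. TMPRSS3 is at 1.94 in PC9-BrM4 beside TFF1 at -2.25, and MUC20 and MUC4 lie at -1.30 and -1.20 between genes of smaller difference.

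Genes with the most similar profile were sought for the 3 members whose line means spanned at least 1 on the log2 scale, TFF1 (3.42), MUC4 (1.67) and MUC20 (1.299), among 10736 genes with at least 5 TPM in their highest line. Likeness was the root mean square distance between profiles centred on their mean over the 6 libraries. The distance grows with the range of the member itself, so it ranks genes for 1 member and does not compare members. Nearest to MUC20 were GALNT12 at 0.126 and the pseudogene FAAHP1 at 0.129. GALNT12 is the glycosylating enzyme described above, and it too was lowest in both PC9-BrM4 libraries. The nearest genes were picked for likeness over these same libraries, so a shared order of lines or a high r adds no support. MUC4 was followed by GCKR (0.34), GGT1 (0.35), CYP2S1 (0.36) and SARDH (0.36). Each of these was also higher in the first PC9-AMG library than in the second, but by a smaller gap than MUC4. Nearest to TFF1 were CD40 (0.55), GGT1 (0.55), GNGT2 (0.56) and APOE (0.60). As a description over the same 6 libraries, which fall into 3 lines, Pearson's r was 0.978 for GGT1 with TFF1 and 0.977 for GALNT12 with MUC20. APOE, an apolipoprotein, stood at 9.17 and 13.9 TPM in PC9, 4.52 and 6.51 in PC9-BrM4, and 41.9 and 39.7 in PC9-AMG, in the same order of lines as TFF1. GGT1, a glutathione-cleaving enzyme, stood at 12.6 and 14.3, 3.72 and 3.36, and 21.8 and 17.2 TPM.

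**Figure D5:**
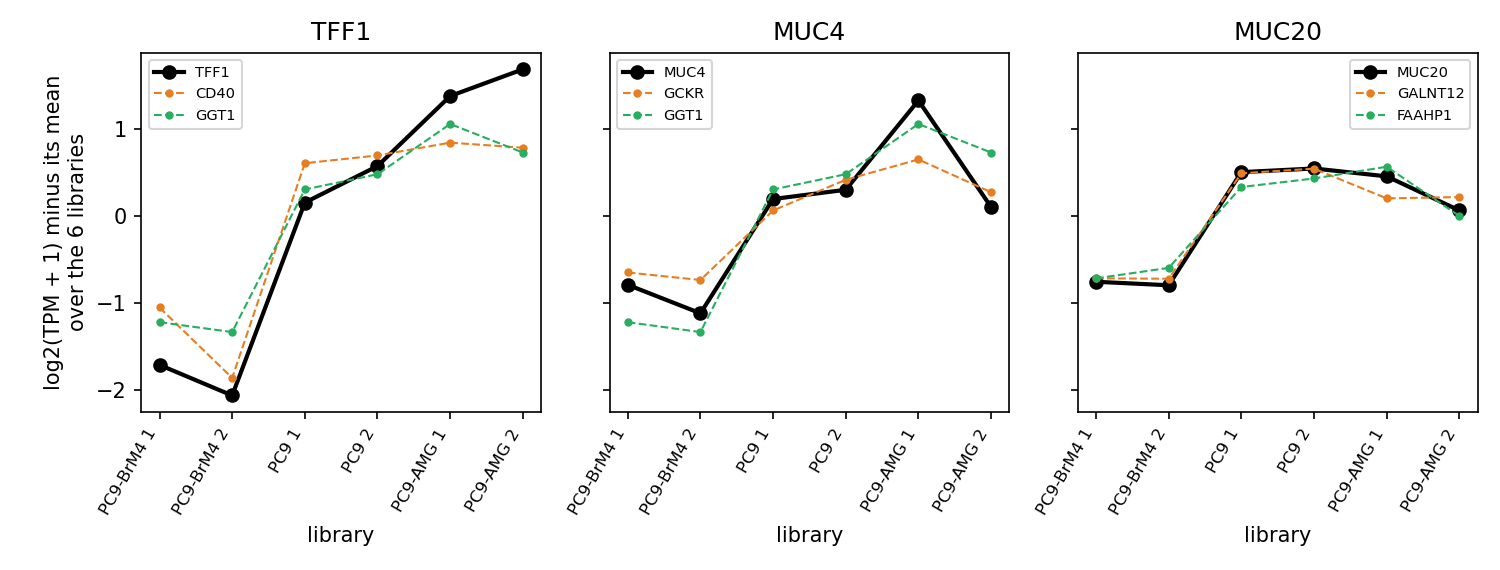
Profiles of TFF1, MUC4 and MUC20 (black) and of the 2 genes nearest to each (coloured, dashed) as log2(TPM + 1) minus the mean over the 6 libraries (vertical axis), with the libraries along the horizontal axis. GALNT12 and FAAHP1 follow MUC20 at root mean square distances of 0.126 and 0.129, and CD40 and GGT1 lie 0.55 from TFF1.

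The labelled cell type was checked on markers. Of 11 lung epithelial markers 7 were at 1 TPM or more in all libraries, with EPCAM between 634 and 856 TPM, whereas the surfactant genes SFTPB and SFTPC were listed at 0 and NKX2-1, which marks lung adenocarcinoma, did not exceed 0.283. The summed epithelial markers were 16490 and 16748 TPM in PC9, 12295 and 12842 in PC9-BrM4, and 14986 and 14495 in PC9-AMG, so that sum, most of it keratins, was lowest in the line with the lowest TFF1, MUC4 and MUC20. Members of the list went the other way: EPCAM was 846 and 856 TPM in PC9-BrM4 against 705 and 698 in PC9, and CDH1 was 159 and 124 against 107 and 109. Of 9 glial markers 7 were under 1 TPM in all libraries, GFAP, S100B, AIF1, CX3CR1 and P2RY12 being listed at 0 in every one. The list summed to between 20.7 and 30.3 TPM, most of it MBP. Since the values are for human genes on build hg38, they cannot show whether RNA of mouse cells was present. SLC1A3, an astrocyte glutamate transporter gene, differed between the lines, at 0 in both PC9 libraries, 3.44 and 2.12 TPM in PC9-BrM4, and 0.652 and 0.361 in PC9-AMG; its part in the results was not tested. Of 8 stromal and blood markers 6 were under 1 TPM in all libraries and CD3E was at 0; their sum was 166.5 to 245.9 TPM, most of it CD68. The 20 ribosomal protein genes summed to 44916 and 45430 TPM in PC9, 35979 and 40397 in PC9-BrM4, and 48608 and 50645 in PC9-AMG. These are transcript levels and do not measure RNA quality, which was not assessed. Their sums follow the same order of lines as TFF1. The part of the epithelial and ribosomal markers in the results was not tested. Each library held between 13848 and 14171 genes at 1 TPM or more, and r between libraries over the tested genes was 0.986 to 0.990 within a line and 0.967 to 0.981 between lines.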

How the data were processed

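Messenger RNA was measured in 6 libraries of 3 lines. Per the labels' protocols, total RNA was extracted with TRIzol and made into TruSeq Stranded mRNA libraries; the submitters' processing notes name HISAT2 2.1.0, StringTie 1.3.4d and build hg38. TPM and FPKM were computed by the authors with StringTie, per the file headers, as was the coverage, a mean number of reads per base. The deposited values include no read counts, so the depth of a library is not known and values carry no counting interval. The coverage per TPM, as a library's median over genes above 1 TPM, was 0.606 to 0.822 reads per base. Single genes depart from that median. Strand settings, annotation and filters are not given in the sources used here.

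TPM was summed over the rows of a gene in each library table (26485 genes); in the table over all libraries 98.9% of genes equal these sums within 0.001 TPM, all 8 members among them. MUC4 and MUC20 also have rows on alternative haplotype contigs, all at 0. The 14627 genes that reached 1 TPM in 2 or more libraries were tested on log2(TPM + 1) with limma 3.58.1 in R 4.3.3: line means over all 6 libraries, moderation with a variance trend (3 residual and 6.81 prior degrees of freedom), two-sided, Benjamini-Hochberg adjustment over all tested genes, called at 0.05. The script was tested on simulated data. The moderated SE of a gene rests on a variance pooled over all 3 lines, so it is the same in each of the 3 comparisons. It does not measure the spread of only the lines compared.

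The members, lists and tests were chosen with earlier results of these data known. Named genes are the 8 members, called list genes (up to 5 per list and comparison, except that all 8 called O-glycosylation genes are given for PC9-BrM4 against PC9), the tested neighbours, and up to 4 nearest profiles per member whose line means span at least 1. List genes that were not called or not tested (ADAM17, SPDEF, FOXA2, GKN1, GKN2, MUC2, MUC5AC, MUC5B and MUC6) were named outside this rule, after their values were seen, as were single marker genes. Results for some genes named by these rules are not reported here. Motifs were searched in the promoters of the RefSeq table (GRCh38.p14). The alternatives were no filter or one at 5 TPM, pseudocounts of 0.1 and 0.5, median centring, quantile normalization, FPKM, the table over all libraries, no variance trend, robust moderation, only the 4 libraries compared, the replicate number as a block, and leaving out each library in turn.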

Additional observations from a re-analysis of the deposited data

Results flagged for a closer look

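TFF1 differed by 3.42 on the log2(TPM + 1) scale between PC9-AMG and PC9-BrM4, because the lines moved in opposite directions from PC9: both PC9-BrM4 libraries (1.66 and 1.09 TPM) lay below, and both PC9-AMG libraries (21.6 and 26.95 TPM) above, the PC9 libraries (8.68 and 11.9 TPM). No p-value is given for the difference, since TFF1 was put forward for its levels in these libraries, although the model over all tested genes included it. Over 18 alternative settings it ran from 2.93, with FPKM, to 4.07, with a pseudocount of 0.1.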

How the results depend on the processing

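With 2 libraries per line, the counts of called genes depended on single libraries. Leaving out each library in turn gave 892 to 2383 called genes for PC9-BrM4 against PC9 (2389 with all), 131 to 1152 for PC9-AMG against PC9 (1096) and 1024 to 2886 for PC9-AMG against PC9-BrM4 (2720), the lowest counts coming without the second PC9 library for the comparisons with PC9 and without the first PC9-BrM4 library for the derivatives. For the mucosal lists the ranges were 12 to 23 (24), 1 to 8 (8) and 11 to 18 (22). The lone library left in a line is assumed to vary like the others. For PC9-AMG against PC9 no filter gave 250 and no variance trend 325 called genes, with 2 list genes under each, and a filter at 5 TPM gave 13 list genes. For PC9-AMG against PC9-BrM4 no filter gave 1799 called genes, and only the 4 libraries compared gave 14 list genes. The cause was not tested.

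Same-numbered libraries did not deviate together (correlations of 0.03, -0.04 and 0.0027 over genes). This shows no broad shared shift, but it cannot show whether same-numbered libraries were prepared together. With a replicate block 2483, 1298 and 2905 genes were called, and 24, 11 and 22 list genes. Quantile normalization called 1088 higher and 1253 lower, 671 and 561, and 1326 and 1137. Of the list and neighbour calls, 15 of 29, 2 of 9 and 11 of 29 passed under every alternative run; the 2 for PC9-AMG against PC9 are ELF3 and TMPRSS3.

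Of the member differences, TFF1 ran from -2.83 to -1.79 for PC9-BrM4 and from 0.96 to 1.38 for PC9-AMG, and MUC20 from -1.40 to -1.28 for PC9-BrM4, over 18 alternatives. Sign depended on the library left out for MUC4 (PC9-AMG against PC9), MUC16 (PC9-BrM4 against PC9) and MUC1 (between derivatives). Levels near 1 TPM, TFF1 in PC9-BrM4 among them, rest on a coverage of about 1 read per base or less.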
